A study of Mus musculus with 12 samples.

Results

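The genes described here are 9 chemokine receptors of the cells that live in white fat: Ccr1, Ccr2, Ccr7, Cx3cr1, Cxcr3, Cxcr4, Cxcr6, Ackr1 and Ackr3. The rule lists them by name and sets no threshold on their values, and they stand among 31053 genes in each of 12 single-cell libraries. Each library held the stromal vascular fraction (SVF), the cells left when floating adipocytes are removed, from the epididymal (eWAT) or inguinal (iWAT) depot of a 12-week-old male mouse. The 3 groups per depot, of 2 libraries each, were wild-type C57BL/6 mice gavaged with vehicle (WT-Veh), leptin-deficient Lepob/Lepob mice on vehicle (ob/ob-Veh) and Lepob/Lepob mice on rosiglitazone (ob/ob-Rosi). Rosiglitazone (Rosi), a PPARγ agonist, was given at 30 mg/kg by gavage for 3 days, morning and evening. The leptin mutation of an ob/ob mouse is carried by every cell, and each depot was sampled as biopsies from several places.

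Chemokines are small secreted proteins that direct cell movement, and their receptors sit in the membrane and signal through G proteins. Ccr2 brings monocytes from the blood into inflamed fat along its ligand Ccl2, and Ccr1 and Cx3cr1 also mark cells of the monocyte and macrophage line. Ccr7 leads mature dendritic cells and lymphocytes towards lymph nodes, Cxcr3 and Cxcr6 are receptors of activated or tissue-resident lymphocytes, and Cxcr4 binds Cxcl12 on most leukocytes. Ackr1 and Ackr3 are atypical: they bind chemokines and remove or move them without signalling through G proteins, Ackr1 classically on venules and Ackr3 as a second receptor of Cxcl12.

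The signalling members share a short motif at the inner end of a membrane helix, the DRY motif, that couples the receptor to its G protein. It is shown here because it separates 8 of the 9 genes from Ackr1 by sequence alone. Each line gives 21 bases of the coding strand of the longest GENCODE transcript on GRCm38, 5′ to 3′, with the codons of the motif in capitals.
Ccr1: GACAGATACctggccattgtc
Ccr2: GATAGGTACttggctattgtt
Ccr7: GACCGCTACgtagccatcgtc
Cx3cr1: GACCGGTACcttgccatcgtc
Cxcr3: GACAGATATctgagcatagtg
Cxcr4: GACCGGTACctcgctattgtc
Cxcr6: GATCGTTTCattgtagtggtc
Ackr3: GACCGCTATctctccatcacc
The motif began at codon 130 in Ccr1, 150 in Ccr2, 153 in Ccr7, 127 in Cx3cr1, 147 in Cxcr3, 135 in Cxcr4, 142 in Cxcr6 and 141 in Ackr3. Cxcr6 carries a variant form of the motif. Ackr3, although atypical, kept the codons of the motif, and in Ackr1 no in-frame match was found, which says only that these codons are not in its reading frame.

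Of the 9 genes, 4 lie on chromosome 9 of GRCm38, and 3 of these within the same cluster: Cxcr6 at chr9:123806475-123811760 on the plus strand, Ccr1 at chr9:123962124-123968692 on the minus strand and Ccr2 at chr9:124101950-124113557 on the plus strand. Cx3cr1 spans chr9:119901616-120069879 on the minus strand. Ccr7 is at chr11:99144196-99155077 (minus), Cxcr3 at chrX:101731535-101734269 (minus), Cxcr4 at chr1:128588199-128592293 (minus), Ackr1 at chr1:173331886-173333750 (minus) and Ackr3 at chr1:90203980-90216751 (plus). Ackr1 overlaps Cadm3 and Cx3cr1 overlaps Gorasp1, Csrnp1 and Xirp1 on the same strand, so reads of these pairs may be split by the counting, and this limits every value of Ackr1 and Cx3cr1 given here.

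After filtering, 57613 cells of eWAT and 68482 of iWAT remained, with 19593940 to 66315901 unique molecular identifiers (UMIs, one per captured RNA molecule) per library. Cells were clustered without the 9 receptors and named from marker genes. The names (PVM-like perivascular, NPVM-like non-perivascular and LAM-like lipid-associated macrophages, conventional dendritic cells cDC1 and cDC2, mature dendritic cells or mature DCs, type 2 innate lymphoid cells or ILC2s, endothelial cells or ECs, and the stromal adipocyte progenitor cells or APCs, split into progenitors, preadipocytes and other APCs) are marker-defined likenesses, and the suffix is left out below. The check of the labels, made over all barcodes before filtering, gave mixed values. Lep UMIs per 100 Adipoq UMIs were 139 to 361 in ob/ob-Rosi, 20.5 to 79.3 in WT-Veh and 3.59 to 33.3 in ob/ob-Veh libraries. The ob/ob-Veh values rested on 4 to 60 Lep UMIs per library, and the 33.3 on 4 Lep and 12 Adipoq UMIs. Both transcripts come from adipocytes left in the preparation, and the ob allele still makes Lep RNA. LAMs numbered 7 to 20 in each ob/ob-Veh library and 216 to 1511 in each of the others, in a preparation that leaves out what floats with the adipocytes. In eWAT, ob/ob-Veh 1 and 2 held 17 and 10 preadipocytes, 2217 and 2246 other APCs and 1822 and 744 progenitors. The other eWAT libraries held 1347 to 3084, 136 to 210 and 57 to 216 of these. The part of this shift in the stromal calls of eWAT given below was not tested. The ob/ob-Veh cells also stood apart in clustering, with 81.8% (eWAT) and 94.2% (iWAT) of the 14928 and 13775 named myeloid, lymphoid, stromal and endothelial cells in clusters made up at 90% or more of their own group. Groups are therefore called by their labels. The iWAT WT-Veh 1 library stood apart too, at a median of 1132 UMIs per cell and with 2346 CD4 T cells and 1863 B cells, and libraries shared 7 to 99 cell barcodes per pair.

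Levels are CPM, the UMIs of a gene divided by all UMIs of its class in a library and scaled to the usual common total, given as mean ± SD over libraries with at least 20 cells of the class. A share of cells with a UMI is set beside the share in a class that should lack the gene, since free RNA gives UMIs to any droplet. The plot of levels by class shows each library.

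Ccr2 was spread over monocytes, NPVMs, dendritic cells and innate lymphocytes. In eWAT it reached 1149 ± 486 CPM (SD, n = 6) in monocytes, 1025 ± 754 CPM (n = 3) in ILC2s, 887 ± 351 CPM (n = 6) in NPVMs and 671 ± 123 CPM (n = 6) in cDC2s, classes whose libraries overlapped in that order. In iWAT the order began with NPVMs at 1050 ± 502 CPM (n = 6), gamma-delta T cells at 866 ± 422 CPM (n = 5) and NK cells at 567 ± 191 CPM (n = 6), again overlapping. NPVMs held 35.9% of the Ccr2 UMIs of eWAT and 39.3% of those of iWAT over all libraries, with 45.4 to 56.0% in the ob/ob-Veh libraries of either depot and 13.7 to 43.4% in the others. A Ccr2 UMI was seen in 78.1% of 2666 iWAT NPVMs at a median of 2952.5 UMIs per cell, against 2.38% of 6147 preadipocytes at a median of 3254 UMIs. With every cell thinned to 700 UMIs the shares were 45.7% (95% Wilson interval 43.8 to 47.6%) and 0.683% (0.506 to 0.922%). These intervals, like all others here, cover counting error only.

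Ccr2 separated monocytes from PVMs, the resident macrophages of vessels. In eWAT, monocytes held 614 and 809 CPM in WT-Veh, 1883 and 1564 CPM in ob/ob-Veh and 1142 and 884 CPM in ob/ob-Rosi, where PVMs held 14.4 to 118 CPM. In iWAT the monocyte values were 486 and 903 CPM in WT-Veh and 413 and 354 CPM in ob/ob-Rosi, against 23.4 to 65.4 CPM in the PVMs of these libraries. The mean difference was 3.90 ± 0.81 (SD) on the log2(CPM + 10) scale, higher in monocytes in 10 of 10 libraries. The exact two-sided permutation test gave p = 0.00195, the smallest possible. The adjusted p of this permutation test was 0.00781 over the class pairs that could be tested. Here and for the other class pairs, the test takes each library as independent. The labels do not say whether both depots came from the same mice. If they did, the p-values of the pairs are too small.

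Ccr1, a receptor for Ccl3, Ccl5 and related ligands, was highest in neutrophils, with monocytes and tissue macrophages next. In eWAT monocytes held 152 ± 63.1 CPM and NPVMs 112 ± 68.3 CPM (n = 6 each), and their libraries overlapped. Neutrophils held 568 ± 227 CPM (n = 4) in iWAT, where their libraries did not overlap with those of PVMs at 151 ± 93.5 CPM (n = 6), and 238 CPM in the only eWAT library with 20 of them. PVMs carried 37.9% of the Ccr1 UMIs of eWAT, with 5.93 to 61.3% by library, and 62.2% of those of iWAT, with 42.4 to 78.0%. The lowest share was in eWAT ob/ob-Rosi 2. LAMs held less Ccr1 than PVMs of the same library, 19.3 to 33.9 against 27.3 to 160 CPM in eWAT and 22.9 to 67.7 against 32.0 to 180 CPM in iWAT. The difference of -1.12 ± 0.74 was lower in LAMs in 9 of 9 libraries (exact two-sided permutation p = 0.00391; adjusted p = 0.00781). At 700 UMIs per cell a Ccr1 UMI was found in 38.0% of iWAT neutrophils (31.3 to 45.1%), 7.35% of iWAT PVMs (6.94 to 7.77%) and 0.309% of iWAT preadipocytes (0.198 to 0.482%), whose median depths were 1023, 2700 and 3254 UMIs.

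Cx3cr1, the receptor for the membrane-bound ligand fractalkine, was found in few cells. It was highest in monocytes, at 163 ± 87.2 CPM (n = 6) in eWAT and 149 ± 39.3 CPM (n = 4) in iWAT. No other class overlapped with them in iWAT, and in eWAT only the mast cells of 1 library did, at 90.3 CPM. The eWAT monocytes of WT-Veh held 124 and 106 CPM, those of ob/ob-Rosi 232 and 127 CPM and those of ob/ob-Veh 83.8 and 307 CPM. The spread within ob/ob-Veh, from 83.8 to 307 CPM, was as wide as the whole set. A UMI was seen in 24.6% of eWAT and 32.5% of iWAT monocytes, at medians of 2039.5 and 2571 UMIs per cell, against 0.199% and 0.342% of preadipocytes at 2280.5 and 3254 UMIs. Cx3cr1 was low in PVMs (0.198 to 4.69 CPM) and in LAMs (0.26 to 4.83 CPM in 8 libraries, and 19.6 CPM from 3 UMIs in the 20 LAMs of eWAT ob/ob-Veh 2), and the difference between LAMs and PVMs, 0.25 ± 0.31, was higher in LAMs in 8 of 9 libraries (exact two-sided permutation p = 0.00781; adjusted p = 0.0125). Without eWAT ob/ob-Veh 2, where it was 1.01 against at most 0.40 in the others, the difference was 0.16 ± 0.13 and higher in 7 of 8 (adjusted p = 0.0156, exact permutation test). With all 9 libraries and every cell thinned to 700 UMIs it was 0.05 and higher in 4 of 9 (adjusted p = 0.703, exact permutation test).

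Ccr7 was concentrated in 1 small class. Mature DCs, named from markers other than Ccr7, held 2935 and 3345 CPM in the eWAT WT-Veh libraries, 3821 CPM in the one ob/ob-Veh library with 20 cells and 4337 and 3279 CPM in ob/ob-Rosi. No other class of eWAT overlapped with them, the next being B cells at 449 ± 250 CPM (n = 6) and CD4 T cells at 188 ± 103 CPM (n = 4). Only 210 mature DCs, 0.365% of the eWAT cells, carried 61.1% of the Ccr7 UMIs of the depot. A UMI was present in 96.7% of them (median 2181.5 UMIs) and in 0.395% of PVMs (median 2896 UMIs). At 700 UMIs per cell these shares were 85.7% (80.3 to 89.8%) and 0.0465% (0.0181 to 0.119%).

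Against cDC2s, the conventional dendritic cells best known for presenting antigen to CD4 T cells, Ccr7 in mature DCs was higher by 5.55 ± 0.75 on the log2 scale in 5 of 5 libraries. With 5 pairs the exact two-sided permutation test cannot go below 0.0625, the value found (adjusted p = 0.0714), so the threshold could not be reached. No iWAT cluster met the rule for mature DCs, and there B cells (506 ± 191 CPM, n = 4) and CD4 T cells (600 and 332 CPM) were highest. The iWAT total rested on 1 library: WT-Veh 1 held 200 Ccr7 CPM over all its cells where the other 5 held 2.60 to 8.26 CPM, and 34.3% of the iWAT Ccr7 UMIs were in cells with no class.

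Cxcr3, which binds the interferon-induced ligands Cxcl9 and Cxcl10, was found in T, NK and cDC1 cells. CD8 T cells held 195 ± 48.4 CPM (n = 2) in eWAT and 92.5 ± 68.5 CPM (n = 4) in iWAT. NK cells held 85.7 ± 28.9 and 78.8 ± 35.2 CPM (n = 6 each), and cDC1s, which are dendritic cells that present antigen to CD8 T cells, 51.1 ± 10.8 and 52.5 ± 17.1 CPM (n = 6 each). CD4 T cells held 102 ± 4.78 CPM (n = 4) in eWAT and less in the 2 iWAT libraries with enough of them, 9.86 CPM in WT-Veh 1 (2346 cells) and 26.5 CPM in ob/ob-Rosi 1 (42 cells, 2 UMIs). The cDC1 level ranged over libraries from 38.0 to 64.3 CPM in eWAT and 30.3 to 73.0 CPM in iWAT. PVMs held a low value in each of 12 libraries, 2.87 to 9.32 CPM. A UMI was seen in 2.35% of eWAT PVMs and 0.126% of eWAT progenitors, and after thinning in 0.43% (0.312 to 0.592%) and 0 of 3182 cells, which allows up to 0.121% by the same interval. The comparison of CD8 T cells with ILC2s had 1 library with enough of both, where CD8 T cells held 229 CPM and ILC2s 0, so it could not be tested.

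Cxcr6, the receptor for Cxcl16 and a gene of resident lymphocytes, was highest in gamma-delta T cells and ILC2s. Gamma-delta T cells held 609 CPM in the only eWAT WT-Veh library with 20 of them, 694 and 663 CPM in ob/ob-Veh and 681 CPM in ob/ob-Rosi. In iWAT they held 636 and 672 CPM in WT-Veh, 837 CPM in ob/ob-Veh and 238 and 224 CPM in ob/ob-Rosi, so the Rosi libraries were the lowest of that depot. The edgeR test against WT-Veh gave a log2 change of -1.498 (SE 0.72) and was not called. ILC2s held 465 ± 187 CPM (n = 3, eWAT). Gamma-delta T cells were 0.292% of eWAT cells and carried 23.8% of its Cxcr6 UMIs, with 14.2 to 41.7% in the 4 libraries that held at least 20 of them. ILC2s carried 48.4 and 46.9% in the ob/ob-Veh libraries of eWAT, which held 155 and 128 of them, and 9.09% in ob/ob-Rosi 2, which held 28. The other eWAT libraries held 0 to 14 ILC2s. At 700 UMIs per cell a UMI was found in 39.3% of eWAT gamma-delta T cells (32.2 to 46.8%) at a median of 1574 UMIs and in 0.0814% of PVMs (0.0394 to 0.168%) at a median of 2896. CD8 T cells held more Cxcr6 than NK cells of the same library, by 1.60 ± 0.92 in 6 of 6 libraries (exact two-sided permutation p = 0.0312, the smallest possible; adjusted p = 0.0417). The call was lost with any 1 library left out, where the smallest possible p rises to 0.0625 (adjusted p = 0.0625 to 0.0833), and the iWAT WT-Veh 1 library alone showed almost none of it, at 9.64 against 8.77 CPM.

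Cxcr4 was found across the leukocyte classes. Its highest eWAT means were 273 ± 243 CPM in B cells, 268 ± 219 CPM in NK cells and 267 ± 132 CPM in monocytes (n = 6 each), and in iWAT 352 ± 120 CPM in neutrophils (n = 4), 337 ± 211 CPM in B cells (n = 4) and 254 ± 124 CPM in NK cells (n = 6). None of these neighbours differed beyond the spread of their libraries. PVMs, at 76.2 to 201 CPM, carried 7.54 to 44.9% of the Cxcr4 UMIs of an eWAT library and 10.1 to 55.0% of those of an iWAT library. B cells exceeded PVMs by 0.77 ± 0.77 in 9 of 10 libraries (exact two-sided permutation p = 0.00391; adjusted p = 0.00781), with ob/ob-Rosi 2 of eWAT the exception at 109 against 120 CPM. Capillary ECs also had a Cxcr4 UMI in 7.83% (eWAT) and 9.98% (iWAT) of cells, at medians of 2834 and 2934.5 UMIs, against 3.27% and 2.82% of progenitors at 6511 and 3646.

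The atypical receptors were highest in stromal and endothelial classes. Ackr3 was highest in progenitors, the Pi16- and Dpp4-rich stromal cells that give rise to preadipocytes, at 611 ± 187 CPM in eWAT and 920 ± 288 CPM in iWAT (n = 6 each), with no overlap with any other class. In eWAT the progenitors of WT-Veh held 501 and 444 CPM, of ob/ob-Veh 908 and 764 CPM and of ob/ob-Rosi 589 and 460 CPM, and in iWAT they held 1375 and 679 CPM in WT-Veh, 894 and 1122 CPM in ob/ob-Veh and 847 and 601 CPM in ob/ob-Rosi. Mesothelial cells (207 ± 80.6 CPM, n = 6) and lymphatic ECs (183 ± 104 CPM, n = 3) of eWAT followed. Progenitors carried 62.1% of eWAT and 80.7% of iWAT Ackr3 UMIs over all libraries, with shares of 55.6 and 72.4% in the ob/ob-Veh libraries of eWAT against 12.2 to 38.6% in the other 4, and 46.0 to 90.7% in those of iWAT. A UMI was seen in 85.7% and 82.2% of them, against 1.32% and 6.38% of LAMs at medians of 6971.5 and 6410 UMIs. An ob/ob-Veh library held at most 20 LAMs, so the LAM shares come almost wholly from other libraries. In each depot Ackr3 over all cells was highest in the ob/ob-Veh libraries. Progenitors exceeded preadipocytes by 3.10 ± 0.59 in 10 of 10 libraries (exact two-sided permutation p = 0.00195, the smallest possible, and adjusted p = 0.00781). The ob/ob-Veh libraries of eWAT were not among these, as they held only 17 and 10 preadipocytes.

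Ackr1 was found in venous ECs and progenitors. Venous ECs held 83.7 and 24.3 CPM in 2 eWAT libraries and 146 and 133 CPM in 2 iWAT libraries, against 0 to 4.73 CPM in the capillary ECs of the same libraries. The difference of 3.01 ± 0.85 was higher in 4 of 4 libraries, where the exact two-sided permutation test cannot go below the p of 0.125 it gave. With log2(CPM + 1) the difference was 5.28, so its size depends on the CPM added. Progenitors held 42.8 ± 21.7 CPM in eWAT and 98.6 ± 24.8 CPM in iWAT (n = 6 each) and carried 66.6% and 83.3% of the Ackr1 UMIs over all libraries. Their share was 75.0 and 63.8% in the ob/ob-Veh libraries of eWAT against 13.2 to 36.3% in the other 4, and 39.3 to 89.0% in the libraries of iWAT. Cadm3, the adhesion gene that overlaps Ackr1, was counted in the same cells. Progenitors held 34.7 to 66.3 Ackr1 UMIs per 100 Cadm3 UMIs over 12 libraries, where venous ECs held 362 to 900 over 4 libraries of 5 to 29 Ackr1 UMIs each. Whether the progenitor UMIs belong to Ackr1 or to Cadm3 was not tested.

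The genes whose pattern over 50 class means was most like each receptor's were found among 12137 genes by Pearson's r of log2(CPM + 10). These r values are over classes that share libraries and carry no p. Ccr1 was followed most closely by Nfam1 (0.882), Ccl6 (0.876) and Mcl1 (0.875), Ccr2 by Atp8b4 (0.825), Trps1 (0.804) and Fam49b (0.804), and Ccr7 by Il21r (0.826), Ly75 (0.795) and P2ry10 (0.786). For Cx3cr1 they were Pilrb2 (0.782), Adgre4 (0.767) and Gm9733 (0.735), for Cxcr3 Fasl (0.887), Sh2d1a (0.874) and Ms4a4b (0.868), and for Cxcr4 Arhgap30 (0.905), Ptprc (0.904), which encodes the pan-leukocyte protein CD45, and Fam49b (0.897). Cxcr6 was followed by Xlr4c (0.961), Podnl1 (0.954) and Pdcd1 (0.928), Ackr1 by Gpr1 (0.802), Cadm3 (0.779) and Rnf165 (0.727), and Ackr3 by Tgfbr3 (0.901), Plpp3 (0.885) and Sspn (0.879).

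To ask how the receptors differed between the groups within a class, UMIs were summed per library and class and tested with edgeR's quasi-likelihood test, with Benjamini-Hochberg adjustment over all genes of the class. Calls needed an adjusted p no higher than 0.05 and no less than a 1.1-fold change. A low-count filter first kept genes high enough in as many libraries of the class as the smallest group holds, whichever group they are from. A receptor kept through the ob/ob-Veh libraries alone will tend to come out higher there, which limits the directions and medians given below. In eWAT, 6 of 43 receptor-by-class tests (14.0%) were called between the libraries labelled ob/ob-Veh and WT-Veh, against 4.01% of all gene-by-class tests, and all 6 were higher in ob/ob-Veh. Between ob/ob-Rosi and ob/ob-Veh, 4 of 43 were called (9.3%, against 4.24% of all tests), all lower in ob/ob-Rosi, and 1 of 68 was called between ob/ob-Rosi and WT-Veh (1.47%, against 0.0794%). The median log2 change over the receptor tests was 0.93, -0.42 and 0.41 in these comparisons and that of all genes was -0.00017, 0.0026 and 0.0133. The first 2 comparisons share the ob/ob-Veh libraries, so a high value there enters both with opposite sign. The 6 calls fell to 0 without WT-Veh 1 and to 2 without ob/ob-Veh 1 and rose to 12 without either ob/ob-Rosi library. The 4 calls became 1 without ob/ob-Veh 1, 2 without ob/ob-Rosi 2 and 7 without ob/ob-Rosi 1, and the 1 call became 0 without ob/ob-Rosi 1 or WT-Veh 1 and 2 without ob/ob-Rosi 2 or ob/ob-Veh 1.

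In iWAT, 7 of 47 tests (14.9%) were called between ob/ob-Veh and WT-Veh libraries, against 3.04% of all tests, all higher in ob/ob-Veh. Between ob/ob-Rosi and ob/ob-Veh 6 of 47 were called (12.8%, against 6.32%), all lower in ob/ob-Rosi. The medians were 0.95 and -1.21, and those of all genes 0.00477 and -0.0392. Of these calls, 3 of the 7 and 3 of the 6 were of Ackr3 in myeloid classes that are not its main source. Ackr1 in PVMs, Ccr2 in capillary ECs and Ccr1 in progenitors were also called at low levels. Marker RNA of the source classes is given below, and its part in the counts was not tested. Both counts were larger with DESeq2 and without the low-count filter, as given at the end. Ackr3 in cDC1s passed that filter through the ob/ob-Veh libraries alone. Between ob/ob-Rosi and WT-Veh 0 of 88 were called by edgeR (0.167% of all tests were), with 11 at an unadjusted p under 0.05, 0 called by DESeq2 and 6 without the low-count filter. The 7 calls became 1 without ob/ob-Veh 1, 2 without ob/ob-Veh 2 and 19 without WT-Veh 1, the library that stood apart. The 6 calls became 0 without ob/ob-Veh 1, 2 without ob/ob-Veh 2 or ob/ob-Rosi 2, 20 without WT-Veh 1 and 21 without WT-Veh 2, and the 0 calls became 1 without ob/ob-Rosi 2, 2 without WT-Veh 1 and 13 without WT-Veh 2. No effect was called as different between the depots in 48 tests of either contrast (0.518% and 0.319% of all tests were called), with 5 and 3 at an unadjusted p under 0.05, 1 call in all by DESeq2 and 2 without the low-count filter.

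Ccr7, Cx3cr1, Cxcr3 and Cxcr6 had no call between groups in either depot, but few tests. Between ob/ob-Veh and WT-Veh they had in turn 4, 4, 3 and 1 tests in eWAT and 5, 2, 3 and 1 in iWAT. Of all tests of that comparison 4.01% and 3.04% were called. Mature DCs, gamma-delta T cells, ILC2s and CD8 T cells had too few libraries with enough cells for any test against ob/ob-Veh. For Ccr7 in iWAT the median log2 change was -2.44 over 5 classes between ob/ob-Veh and WT-Veh, with 3 at an unadjusted p under 0.05, and -1.92 over 12 classes between ob/ob-Rosi and WT-Veh, with 5. Both include the WT-Veh 1 library with its high Ccr7. Cxcr3 had no test at an unadjusted p under 0.05 in any of these comparisons.

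Ccr1 and Ccr2 differed in macrophages. Ccr1 in eWAT NPVMs was 75.7 and 69.9 CPM in WT-Veh, 196 and 202 CPM in ob/ob-Veh and 84.8 and 46.4 CPM in ob/ob-Rosi, so the ob/ob-Veh libraries lay above all others. It was higher in ob/ob-Veh by 1.32 (SE 0.30, adjusted p = 0.00578) and lower in ob/ob-Rosi by a log2 change of -1.51 (SE 0.29, adjusted p = 0.000668). All NPVMs of eWAT were 1 cluster, shared by the 3 groups. Both calls were lost with every cell thinned to 700 UMIs, where the adjusted p of the second was 0.0525. The second was kept whichever library was left out, and the first was lost without WT-Veh 1 or WT-Veh 2 (the highest adjusted p over all alternatives tried, given here and below as a bound, was 0.0845).

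Ccr2 in PVMs was higher in ob/ob-Veh in both depots. In iWAT the PVM values were 23.4 and 29.9 CPM in WT-Veh, 154 and 152 CPM in ob/ob-Veh and 45.1 and 65.4 CPM in ob/ob-Rosi, with no overlap between the groups. The change was 2.34 (SE 0.30, adjusted p = 0.00546) in ob/ob-Veh and -1.29 (SE 0.29, adjusted p = 0.0338) in ob/ob-Rosi against ob/ob-Veh. In eWAT they were 32.8 and 14.4, 85.6 and 118, and 62.1 and 29.9 CPM, and the change in ob/ob-Veh was 1.99 (SE 0.41, adjusted p = 0.0314). The PVM clusters of ob/ob-Veh were not those of the other groups: 1852 of 1884 and 1819 of 1845 eWAT PVMs of ob/ob-Veh 1 and 2 were in 1 cluster, which held at most 30 cells of any other library. The calls were lost without ob/ob-Veh 1 or 2 of their depot, in eWAT also without WT-Veh 1 or 2 and for Rosi in iWAT without ob/ob-Rosi 1 or 2 or at resolution 2 (adjusted p up to 0.256).

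In the NPVMs of eWAT Ccr2 was 590 and 739 CPM in WT-Veh, 1131 and 1480 CPM in ob/ob-Veh and 785 and 596 CPM in ob/ob-Rosi. The change with Rosi against ob/ob-Veh was -0.82 (SE 0.28, adjusted p = 0.0489), a call kept in 6 of 13 alternatives and lost without any library but ob/ob-Rosi 1 (adjusted p up to 0.315). Proliferating macrophages, compared between ob/ob-Rosi and WT-Veh because the ob/ob-Veh libraries held too few, held 98.4 and 75.4 against 29.6 and 29.8 CPM, a change of 1.56 (SE 0.31, adjusted p = 0.0172). This call was kept in 7 of 13 alternatives and lost without ob/ob-Rosi 1, WT-Veh 1 or WT-Veh 2, with library size alone, at resolution 2 and with thinned cells (adjusted p up to 0.497).

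Cxcr4 differed in the lymphocytes of eWAT, while no iWAT test of it was called between groups. B cells could not be tested against ob/ob-Veh in iWAT, where the ob/ob-Veh libraries held 0 and 2 of them. Its median log2 change between ob/ob-Veh and WT-Veh was 0.842 over 9 classes in eWAT and -0.647 over 8 in iWAT. The difference between depots was not called in any of the 8 classes tested, and B cells were not among them. In eWAT NK cells Cxcr4 was 132 and 176 CPM in WT-Veh, 624 and 455 CPM in ob/ob-Veh and 104 and 116 CPM in ob/ob-Rosi. The changes were 1.48 (SE 0.33, adjusted p = 0.00751) and -1.99 (SE 0.37, adjusted p = 0.00336). In B cells, of which a library held 21 to 111, it was 102 and 134, 430 and 701, and 163 and 109 CPM, with changes of 2.06 (SE 0.40, adjusted p = 0.00861) and -2.07 (SE 0.48, adjusted p = 0.0372). In both classes the ob/ob-Veh libraries were the highest, without overlap. In B cells the first call was lost without WT-Veh 1 and the second without ob/ob-Veh 1 or ob/ob-Rosi 2 (adjusted p up to 0.493), and in NK cells the calls were lost without ob/ob-Veh 1, the first also without WT-Veh 1 and the second without ob/ob-Rosi 2 (adjusted p up to 0.213). The second B cell call was also lost with DESeq2, library size alone, resolution 2 and thinned cells, which left it in 7 of 13 alternatives, and the first NK cell call at resolution 2.

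The calls for Ackr3 in iWAT were in classes that are not its main source. In PVMs it was 5.30 and 7.01 CPM in WT-Veh, 81.0 and 69.8 CPM in ob/ob-Veh and 12.8 and 12.1 CPM in ob/ob-Rosi, with changes of 3.40 (SE 0.29, adjusted p = 0.0017) and -2.43 (SE 0.27, adjusted p = 0.00591). In NPVMs it was 7.37 and 6.87, 91.1 and 61.6, and 11.9 and 7.81 CPM, with changes of 3.10 (SE 0.44, adjusted p = 0.00409) and -2.62 (SE 0.36, adjusted p = 0.00262). In cDC1s it rested on 0 to 7 UMIs per library, at 0 and 3.23, 62.9 and 48.7, and 4.44 and 5.32 CPM. The changes there were 3.72 (SE 0.91, adjusted p = 0.04) and -2.91 (SE 0.78, adjusted p = 0.0288). Both calls were lost with DESeq2 and at resolution 2, and the first change ran from 3.28 to 7.22 over the alternatives. The first PVM call was kept in 13 of 13 alternatives, and the second and both NPVM calls were lost only without ob/ob-Veh 1 (adjusted p = 0.0588 to 0.0917), while the cDC1 calls were lost without any of 4 or more libraries (adjusted p up to 0.493).

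Stromal RNA moved with these values. The summed level of the 9 APC markers, all detected in each library, was 913 to 960 CPM in the PVMs of iWAT WT-Veh, 5866 to 6146 CPM in those of ob/ob-Veh and 2055 to 2187 CPM in those of ob/ob-Rosi. As a share of the level in APCs of the same library this was 1.49 to 1.60%, 8.68 to 10.0% and 2.96 to 3.85%, and the same share for Ackr3 was 0.982 to 1.44%, 7.98 to 10.1% and 3.25 to 3.34%. In NPVMs the markers were at 1.5 to 1.67%, 8.99 to 10.9% and 2.22 to 2.86%, and Ackr3 at 1.37 to 1.41%, 7.05 to 11.4% and 2.17 to 3.01%. In cDC1s the markers were at 1.19 to 1.49%, 10.1 to 11.9% and 2.13 to 3.18%, and Ackr3 at 0 to 0.665%, 5.57 to 7.85% and 1.12 to 1.47%. The part of stromal RNA in these calls was not tested.

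Ackr1 differed in the stroma and, at low levels, in iWAT PVMs. In eWAT progenitors it was 23.9 and 21.4 CPM in WT-Veh, 76.6 and 57.6 CPM in ob/ob-Veh and 47.1 and 30.5 CPM in ob/ob-Rosi, and it was higher in ob/ob-Veh than in WT-Veh by 1.59 (SE 0.34, adjusted p = 0.0201). Cadm3 in the same cells was higher by 1.23 (SE 0.30, adjusted p = 0.0346). In the other APCs of iWAT Ackr1 was 5.32 and 15.9, 109 and 79.3, and 20.2 and 33.4 CPM, a change of 2.74 (SE 0.46, adjusted p = 0.0287). Cadm3 in these cells was 47.8 and 31.1, 247 and 145, and 47.1 and 45.9 CPM, a change of 2.44 (SE 0.42, adjusted p = 0.0287). In iWAT PVMs, where a library held 1 to 42 Ackr1 UMIs, it was 0.312 and 0.671, 7.92 and 5.85, and 1.25 and 1.75 CPM, with changes of 3.39 (SE 0.59, adjusted p = 0.02) and -1.999 (SE 0.50, adjusted p = 0.0441) while its share of the APC level was 0.995 to 1.38%, 5.90 to 6.35% and 2.76 to 3.09% and the markers' share as given for Ackr3. The Ackr1 calls were lost without ob/ob-Veh 1 of their depot, in iWAT without ob/ob-Veh 2 and in the other APCs with thinned cells. Those against WT-Veh were lost without WT-Veh 2, in eWAT also without WT-Veh 1, and the Rosi call was lost without either ob/ob-Rosi library (adjusted p up to 0.545).

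Ccr1 and Ccr2 were also called in classes where they were low. In eWAT progenitors Ccr2 was 0 and 2.52 CPM in WT-Veh, 11.6 and 18.2 CPM in ob/ob-Veh and 15.7 and 6.77 CPM in ob/ob-Rosi. The fitted change of 3.21 (SE 0.84, adjusted p = 0.0491) depends on the value given to a library at 0, and it was kept in 3 of 12 alternatives, being lost without any of the 6 libraries, with DESeq2, with library size alone and without the cells Scrublet called (adjusted p up to 0.242). As a share of the level in all macrophages of the same library, Ccr2 was 0 to 4.14% in WT-Veh, at most 4.19% in ob/ob-Veh and 8.23 to 10.5% in ob/ob-Rosi, so WT-Veh and ob/ob-Veh overlapped. The 9 macrophage markers were at 778 to 919, 174 to 239 and 760 to 1016 CPM in these progenitors, or 4.89 to 7.48%, 1.65 to 1.67% and 5.93 to 5.94% of their macrophage level. In iWAT capillary ECs Ccr2 was 7.09 and 1.84, 38.1 and 28.4, and 6.47 and 2.94 CPM, a change of 2.82 (SE 0.69, adjusted p = 0.0463), and the markers were at 293 to 518, 824 to 1687 and 447 to 485 CPM. The Ccr2 share of the macrophage level there was 1.66 to 9.48%, 6.70 to 7.83% and 1.71 to 3.54%. In iWAT progenitors Ccr1 was 4.22 and 1.08, 11.9 and 7.63, and 1.48 and 0.905 CPM, and lower with Rosi than in ob/ob-Veh by a change of -2.97 (SE 0.55, adjusted p = 0.0279), with the markers at 325 to 417, 679 to 813 and 454 to 516 CPM, 8 of 9 of them detected in the sparsest library. The Ccr1 share of the macrophage level was 1.64 to 3.01%, 3.66 to 5.01% and 2.24 to 2.63%. The part of macrophage RNA in these values was not tested. Both iWAT calls were lost without ob/ob-Veh 1 or ob/ob-Veh 2, that for Ccr2 also without WT-Veh 2 and with thinned cells and that for Ccr1 without ob/ob-Rosi 2 (adjusted p up to 0.386).

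Between the depots, 6 of 48 tests were called (12.5%, against 3.72% of all tests), all higher in iWAT, and 5 of the 6 were of atypical receptors. Classes were clustered and named in each depot separately. The paper states that the depots' data went through Cell Ranger separately, and that all samples shared a batch and were sequenced together. As the data were handled apart by depot, depot and data set cannot be told apart. The deposited iWAT matrices reached 24.98% mitochondrial UMIs per barcode and those of eWAT 98.34%. Ackr1 in progenitors was 77.3 and 69.3 CPM in WT-Veh of iWAT, 95.9 and 93.9 CPM in ob/ob-Rosi and 132 and 123 CPM in ob/ob-Veh, each above both eWAT libraries of the same group, and the change was 1.39 (SE 0.17, adjusted p = 5.61e-05), kept in 19 of 19 alternatives. Cadm3 was higher there by 1.01 (SE 0.17, adjusted p = 0.000646). Ackr1 in the other APCs was higher by 1.85 (SE 0.38, adjusted p = 0.00619), a call lost only without iWAT WT-Veh 2. The change ran from 1.36 to 4.28 over the alternatives. Ackr3 was higher by 0.71 (SE 0.19, adjusted p = 0.0204) in progenitors, 1.82 (SE 0.37, adjusted p = 0.0156) in NPVMs and 1.64 (SE 0.33, adjusted p = 0.0306) in PVMs. The APC markers in PVMs were at 5866 to 6146 CPM in ob/ob-Veh of iWAT against 1566 to 1827 CPM in eWAT, at 2055 to 2187 against 1206 to 1550 CPM in ob/ob-Rosi and at 913 to 960 against 1161 to 2099 CPM in WT-Veh, and their part in the depot calls was not tested. The Ackr3 calls of progenitors and NPVMs were lost with thinned cells. The Ackr3 calls were lost without 4, 3 and 7 of the 12 libraries, among them iWAT ob/ob-Veh 2, iWAT ob/ob-Veh 1 and eWAT WT-Veh 1 in turn (adjusted p up to 0.588 over all alternatives).

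The sixth depot call was for Cx3cr1 in progenitors. It was 0 in both WT-Veh libraries of eWAT and in ob/ob-Rosi 1, which allows up to 3.78 to 5.97 CPM, and 1.57, 2.94 and 3.39 CPM in the others, and in iWAT it was 0 and 11.1, 4.36 and 7.16, and 7.22 and 10.3 CPM. The fitted change of 4.48 (SE 1.03, adjusted p = 0.00963) depends on the libraries at 0 and was lost without eWAT ob/ob-Rosi 1 or iWAT WT-Veh 2 (adjusted p up to 1). iWAT progenitors carried 33.3% of the Cx3cr1 UMIs of the depot, with 0 to 54.0% by library, although only 1.35% of them had a UMI. Csrnp1, which overlaps Cx3cr1 on the same strand, was higher in the same cells by 1.43 (SE 0.19, adjusted p = 8.29e-05).

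The other chemokine receptors on the list gave few tests, since most were low. Ackr4, a scavenger of the Ccr7 ligands, was lower in ob/ob-Veh than in WT-Veh and higher with Rosi than in ob/ob-Veh. The log2 changes in the other APCs of eWAT were -3.499 (SE 0.36, adjusted p = 5.73e-06) and 4.18 (SE 0.33, adjusted p = 4.26e-07), and those in iWAT progenitors were -3.31 (SE 0.50, adjusted p = 0.0213) and 3.44 (SE 0.50, adjusted p = 0.0104). Other APCs of eWAT were far more numerous in ob/ob-Veh, as given above, and the part of this in the eWAT changes was not tested. Of 20 iWAT tests, 1 was called between ob/ob-Veh and WT-Veh (5%, against 3.04% of all tests) and 2 with Rosi (10%, against 6.32%), shares near those of all genes. The eWAT counts of these comparisons are not reported here, so this holds for iWAT alone. The call besides Ackr4 was a lower Ccr9 in NPVMs with Rosi (-3.79, SE 0.74, adjusted p = 0.00699), and in eWAT NPVMs Ccrl2 was lower with Rosi (-0.91, SE 0.30, adjusted p = 0.0404). Of 25 depot tests 2 were called, or 8%, against 3.72% of all tests: 1 was higher in iWAT (Ackr2 in PVMs, 2.74, SE 0.51, adjusted p = 0.0218) and 1 lower (Ackr4 in the other APCs, -2.10, SE 0.31, adjusted p = 0.000407).

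For these other receptors, with ob/ob-Rosi set against WT-Veh, edgeR called 0 of 36 tests in eWAT and 0 of 41 in iWAT. In each depot 5 of these tests were at an unadjusted p under 0.05. Of all gene-by-class tests edgeR called 0.0794% and 0.167%.

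Of the 15 chemokines listed as ligands, more tests were called in eWAT. Of 99 ligand tests there, 7 were higher and 15 lower in ob/ob-Veh than in WT-Veh (22.2% called in all, against 4.01% of all gene-by-class tests, median change -0.45), and 17 were higher and 7 lower with Rosi than in ob/ob-Veh (24.2%, against 4.24%, median 0.42). Ccl8, whose human counterpart binds CCR2 but which is not an established Ccr2 ligand in mice, accounted for 8 of the 15 lower calls, among them -3.60 (SE 0.36, adjusted p = 0.00118) in PVMs and -3.55 (SE 0.45, adjusted p = 5.5e-06) in NPVMs, and it was higher with Rosi by 3.29 (SE 0.36, adjusted p = 0.00221) and 2.68 (SE 0.44, adjusted p = 0.000108). It was also lower in B and NK cells. The 9 macrophage markers, as given above, were at 778 to 919 CPM in eWAT progenitors of WT-Veh. They were at 174 to 239 CPM in ob/ob-Veh and 760 to 1016 CPM in ob/ob-Rosi. The part of free RNA in the eWAT ligand calls and their counts was not tested. Cxcl10, a Cxcr3 ligand, was higher in ob/ob-Veh NPVMs by 1.25 (SE 0.34, adjusted p = 0.0234) and lower with Rosi (-2.60, SE 0.35, adjusted p = 1.02e-05), and Cxcl12, the ligand of Cxcr4 and Ackr3, was higher in ob/ob-Veh PVMs by 2.04 (SE 0.29, adjusted p = 0.00681) and lower with Rosi (-1.96, SE 0.30, adjusted p = 0.0108). Cxcl16, the Cxcr6 ligand, was higher with Rosi in NPVMs (1.13, SE 0.32, adjusted p = 0.0178).

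In iWAT 1 ligand test of 87 was higher and 3 were lower in ob/ob-Veh (4.6%, against 3.04% of all tests), and 6 were higher and 2 lower with Rosi (9.2%, against 6.32%), shares near those of all genes. Ccl5, a ligand of Ccr1, was the gene of the 3 lower tests, with a change of -3.53 (SE 0.64, adjusted p = 0.013) in NPVMs, and it rose there with Rosi by 2.68 (SE 0.63, adjusted p = 0.013). The part of free RNA in the iWAT ligand calls was not tested. Between ob/ob-Rosi and WT-Veh, where 0.0794% of all tests were called in eWAT and 0.167% in iWAT, 1 of 157 ligand tests was called in eWAT (Cxcl10 in mature DCs, -6.87, SE 1.54, adjusted p = 0.0222) and 0 of 168 in iWAT by edgeR, with 25 at an unadjusted p under 0.05. Of 86 depot tests 5 were higher and 4 lower in iWAT (10.5%, against 3.72%), among them Cxcl12 in the other APCs (1.78, SE 0.23, adjusted p = 9.43e-05) and Cxcl16 in PVMs (-0.81, SE 0.17, adjusted p = 0.0364). The difference between depots was itself called in 4 of 86 ligand tests for each contrast (4.65%, against 0.518% of all tests for ob/ob-Veh against WT-Veh and 0.319% for Rosi), such as Ccl8 in NPVMs for ob/ob-Veh against WT-Veh (3.91, SE 0.78, adjusted p = 0.0303).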

How the data were processed

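Single-cell 3′ libraries of 12 SVF samples were analysed, 2 per depot and group. The deposited matrices hold raw UMI counts per gene and cell barcode, made by the authors with bcl2fastq 2.19.1.403 and Cell Ranger 3.0.2 on mm10, per the submitters' processing notes. Counting error alone limits the precision of rare transcripts, and libraries held 20132553 to 92475986 UMIs over all barcodes. Cells with 700 to 22000 UMIs, 200 to 6000 genes and under 25% mitochondrial UMIs, as the study's methods filter them, were kept: 57613 of 67341 barcodes in eWAT and 68482 of 72414 in iWAT. The study states more cells in eWAT and fewer in iWAT. Each depot was clustered with scanpy 1.11.5 (2000 variable genes, 25 components, 15 within a lineage, Leiden resolution 1) with no chemokine receptor among the genes, and clusters with at least 3 markers were named. This left 6025 (10.5%) eWAT and 12689 (18.5%) iWAT cells unnamed. Doublets called by Scrublet, as in scanpy, were kept and removed in an alternative. It called under 0.5% of cells in 4 libraries, where it did not work.

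Counts were summed per library and class (at least 20 cells) and tested with edgeR 4.0.16 (TMM, filterByExpr, quasi-likelihood test, groups of a depot in 1 fit, 2 libraries per group needed), in place of the study's Wilcoxon test over cells. DESeq2 1.42.0, library size alone, no filter, thinning to 700 UMIs, resolution 2, a replicate block and leaving out each library were alternatives. The need for 2 libraries per group was checked before a library was left out. Such a fit could leave 1 library in a group, and the spread then came from the other groups. Labels call the replicates biological. Pairs of classes were compared by an exact sign-flip permutation test on log2(CPM + 10). The named genes were the 9 receptors, the 3 genes most like each (at least 20 CPM in a class) and called members of the lists. Members, lists and class pairs were chosen with earlier results of these data known, so the p-values of the pairs are no independent support. The same holds for the shares of member and list tests called, set beside those of all genes. Gene positions and coding sequences came from GENCODE on GRCm38 (the mm10 assembly). Results of 1 gene on the list of other receptors are not reported here.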

Additional observations from a re-analysis of the deposited data

How the results depend on the processing

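No mean difference of a class pair and no fitted change of a called receptor test reversed its sign under the alternatives. Cx3cr1 in LAMs against PVMs was, however, higher in only 4 of 9 libraries with thinned cells. For counts of calls, given in the order genotype (ob/ob-Veh against WT-Veh), drug (Rosi against vehicle in ob/ob) and ob/ob-Rosi against WT-Veh, leaving out the low-count filter gave 16 and 8 calls in eWAT and 25, 19 and 6 in iWAT, and 2 depot differences. DESeq2 gave 11 and 11 calls in iWAT and 1 depot difference, and library size alone 11 for Rosi in iWAT and 0 for ob/ob-Rosi against WT-Veh in eWAT. Library size alone also moved the median of all genes to 0.115 (eWAT) and 0.168 (iWAT) for ob/ob-Veh against WT-Veh and to -0.217 for Rosi in iWAT. At resolution 2 eWAT had 10, 7 and 0 calls. With cells thinned to 700 UMIs eWAT had 1 call for Rosi against ob/ob-Veh and 0 against WT-Veh, the depots 3 calls, and 1 difference was called. Leaving out 1 library gave 0 to 12, 1 to 7 and 0 to 2 calls in eWAT, 1 to 19, 0 to 21 and 0 to 13 in iWAT, 4 to 6 between depots and 0 to 1 differences. Of 419 alternative values of the single calls, 314 kept the call and 105 lost it. The adjusted p-values of the single calls in the text are from edgeR. The share called over all genes was computed for the main fit alone. Counts of calls under the alternatives, here and below, therefore cannot be set against such a share.

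With the replicate block, eWAT had 17 and 8 calls, iWAT 16, 18 and 2, and 2 depot differences. The replicate numbers share no stated animal or day, and the paper puts all samples in the same batch. Deviations of same-numbered libraries correlated at over 0.1 in 18 of 18 classes between iWAT WT-Veh and ob/ob-Rosi (median 0.613), in 14 of 14 between the ob/ob-Rosi libraries of both depots (median 0.635) and in 11 of 11 between eWAT WT-Veh and ob/ob-Veh (median 0.298). Between iWAT ob/ob-Veh and ob/ob-Rosi they did in 3 of 8 (median 0.061) and between iWAT WT-Veh and ob/ob-Veh in 4 of 8 (median 0.0914), so not every pair of groups met the rule set for pairing, and the block was kept as an alternative. All 30 single calls were kept in the block fit.

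With 2 to 6 libraries per depot, none of the pairs called over both depots passed in 1 alone. In eWAT alone the differences were 4.22 for Ccr2, -1.11 for Ccr1, 0.35 for Cx3cr1, 2.38 for Cxcr6, 0.72 for Cxcr4 and 3.56 for Ackr3, and in iWAT alone 3.41, -1.13, 0.13, 1.21, 0.85 and 2.79. Cx3cr1 in LAMs against PVMs lost its call with thinned cells (0.0499), and Cxcr6 in CD8 T against NK cells with 50 cells of both classes (1.91), at resolution 2 (2.26) and without any 1 library (1.33 to 1.90). Leaving out 1 library gave 3.77 to 4.08 for Ccr2, -1.25 to -0.977 for Ccr1, 0.159 to 0.286 for Cx3cr1, 0.592 to 0.875 for Cxcr4, 3.02 to 3.20 for Ackr3, 5.33 to 5.83 for Ccr7 and 2.77 to 3.42 for Ackr1. Cxcr3 in its 1 library was 7.85 with log2(CPM + 1), 4.52 at resolution 2 and 5.13 with thinned cells. Depth limits what can be said of classes with few cells, where a count of 0 allows up to 97.6 Ackr3 CPM in the eWAT B cells of ob/ob-Rosi 1.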
